A study of Mus musculus with 25 samples.

Results

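Mbp, Cnp, S100b, Fabp7, Ngfr, Erbb3, Sox2 and Foxd3 are 8 genes used as markers of Schwann cells, the glia of peripheral nerves, and of the neural crest, the embryonic tissue from which both Schwann cells and melanocytes arise. They were taken by symbol from the 55385 genes counted in 25 RNA libraries of cultured murine melanoma cells, and they were selected on their levels (CPM and TPM) in these same libraries. The levels of the 8 genes are therefore given as a description, without a test. All 8 passed the filter on low counts that left 15247 genes, some of them only through the lines in which they were high.

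Each of 5 melanoma lines was measured in 5 biological replicates, as untreated cells at a confluency of 50%. WT31 came from Tyr::NrasQ61K/°; INK4a-/- mice, RET from MT/RET transgenic mice in which the metallothionein promoter drives RET, HCmel12 from a primary melanoma of HGF-CDK4(R24C) mice and D4M from Tyr::CreER;BrafCA;Ptenlox/lox mice, while B16F10 luc2 was purchased. WT31, B16F10 luc2 and RET were kept in RPMI with 10% serum, HCmel12 in RPMI with further supplements and D4M in Advanced DMEM/F-12 with 5% serum, so that the line and its medium cannot be told apart for D4M and HCmel12. Every line is a single line of its genotype. Differences between lines are thus differences between these cultures and not between genotypes, and the p-values below measure the spread between cultures of a line.

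In development, neuregulin signals through the receptor ErbB3 with its partner ErbB2 and guides neural crest cells into the Schwann lineage. Immature Schwann cells carry the low-affinity neurotrophin receptor p75 (Ngfr) and the fatty acid binding protein Fabp7, and myelinating cells switch on proteins of the sheath such as Mbp and Cnp. Melanocytes share this origin and the factor Sox10, and part of these genes can be found in melanoma as well.

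Counts assigned to genes lay between 24199083 and 25843286 per library. Levels within a gene are given as CPM, the counts of a gene scaled to a common library total and corrected with TMM factors, and levels between genes as TPM, which accounts for transcript length. A level of 3 counts, which corresponded to 0.111 to 0.138 CPM, was taken as the floor of detection, and where no library of a line exceeded 3 counts, folds over that line are given as lower bounds. These floors cover counting error only. The label of all lines is melanoma. The melanocyte genes Mitf, Dct, Tyr, Tyrp1, Pmel and Mlana summed to between 11118 and 29626 CPM in the libraries of WT31, B16F10 luc2, RET and HCmel12, but to between 6.41 and 57.6 CPM in D4M, where only 2 of the 6 genes lay above the floor in every library. Of 7 fibroblast genes, 6 lay above the floor in every library of D4M, with a sum of 707 to 1386 CPM against at most 102 CPM in any library of the other lines. The sum in D4M was carried by Col3a1, Col1a2, Col1a1, Pdgfra and Pdgfrb, with means of 47.4 to 472 CPM, while Dcn had 0.335 CPM and Lum had 0 counts in all D4M libraries. Markers of immune cells were at the floor in all 5 lines. The 4 endothelial genes summed to 25.4 to 39.1 CPM in HCmel12 and to at most 2.03 CPM elsewhere. Only 1 of them lay above the floor in every HCmel12 library. The 3 keratinocyte genes summed to at most 2.46 CPM in WT31, 2.98 CPM in D4M and 0.119 CPM elsewhere, and 3 neuron genes to at most 0.267 CPM. The oligodendrocyte genes Mog, Mobp and Opalin summed to at most 0.190 CPM. In bulk RNA, fewer cells with a transcript and less of it per cell cannot be told apart.

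D4M replicate 1 stood apart from the other D4M libraries, since its melanocyte genes summed to 57.6 CPM against 6.41, 6.64, 6.67 and 11.6 CPM in replicates 2 to 5. HCmel12 replicate 4 had the largest share of genes in which 1 library lay far from the other 4 of its line (6.75% of the tested genes, against at most 2.72% for any other library).

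The lines differed in which of these genes they had above the floor, except that B16F10 luc2 and RET shared the same set, and they differed in the levels of the genes they had. In WT31 all 8 were above the floor in every library. In B16F10 luc2 and RET this held for 6, with Sox2 and Foxd3 at 0 counts, in D4M for 6, with Fabp7 at no more than 2 counts in any library and Mbp at no more than 3 in replicates 2 to 5 but at 94 in replicate 1, and in HCmel12 for 7, with Sox2 at the floor. Of the 80 comparisons of the 5 values of a line with the 5 values of another, 59 (73.8%) showed ranges without overlap, beside 58.3% over all tested genes. The 5 lines thus also differed widely in genes that are no markers. In 3 of the 8 genes the line with the highest mean had all 5 values above the 20 others, namely Mbp in RET, Sox2 in D4M and Foxd3 in WT31. Such a separation was found for 5.19% of all tested genes in RET, 16.7% in D4M and 9.88% in WT31. In 4 genes the line with the lowest mean had all 5 values below the 20 others, namely Cnp in B16F10 luc2, S100b in HCmel12, and Erbb3 and Fabp7 in D4M, beside 4.75% of all tested genes in B16F10 luc2, 4.16% in HCmel12 and 11.5% in D4M.

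**Figure D1:**
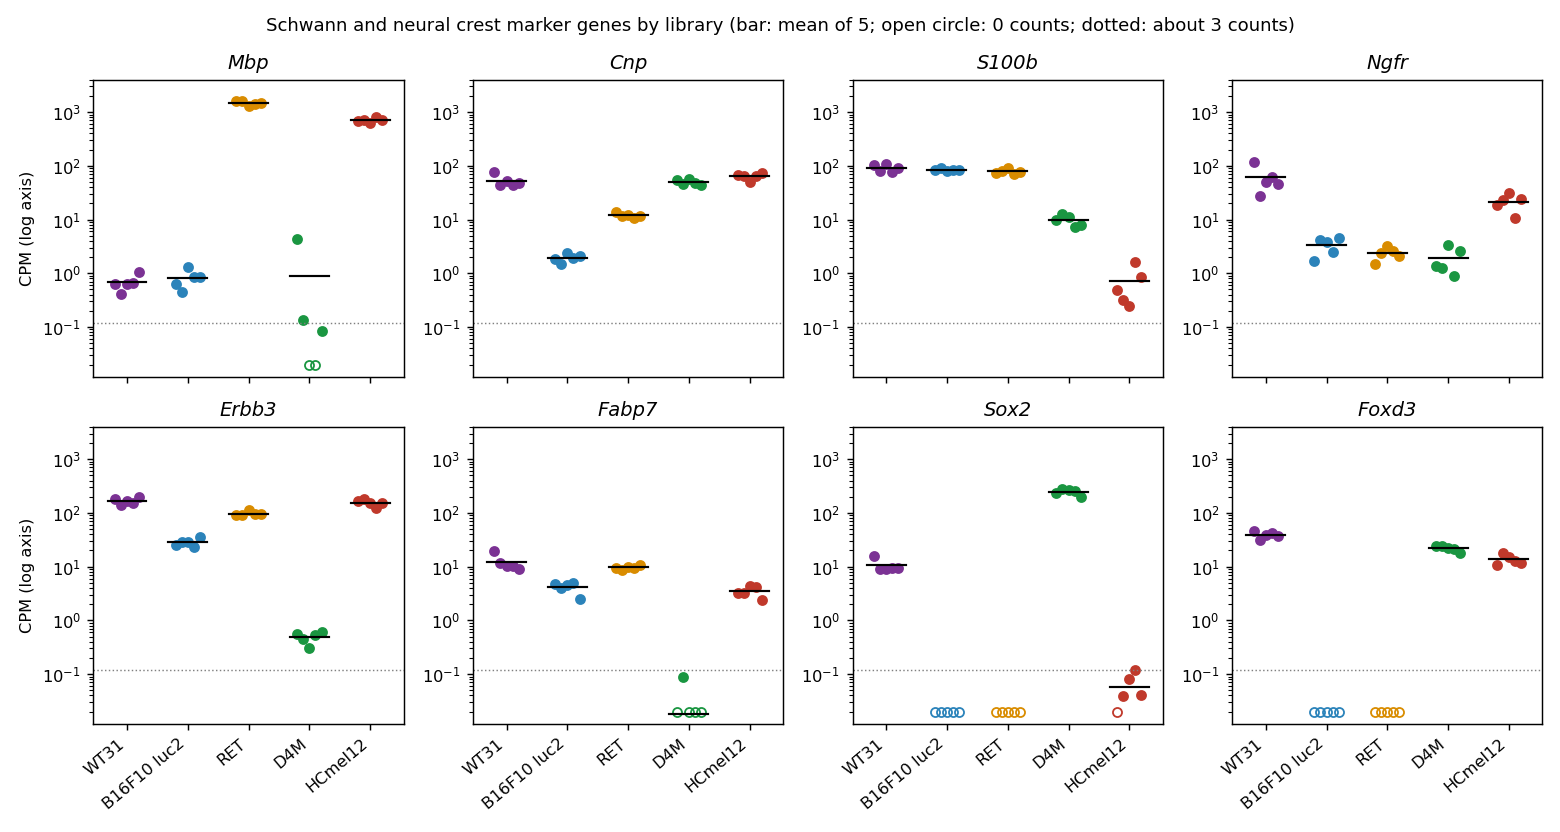
Level of each of the 8 genes in every library, in CPM on a log axis, with the lines on the horizontal axis. Points are libraries, bars are the means of 5, open circles at the foot of each panel are libraries with 0 counts and the dotted line marks about 3 counts; Mbp is at 614 CPM or more in RET and HCmel12 and at most 4.32 CPM elsewhere, and for Sox2 and Foxd3 all libraries of B16F10 luc2 and RET are open circles.

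The sum of the 8 genes on the TPM scale was 112 in B16F10 luc2, 225 in D4M, 288 in WT31, 713 in HCmel12 and 1590 in RET. A single gene made up most of it in 4 lines. Mbp accounted for 91.2% in RET and 85.5% in HCmel12, S100b for 82.0% in B16F10 luc2 and Sox2 for 76.5% in D4M. In WT31 the largest share was 38.1%, from S100b, and the sum was spread over S100b, Erbb3, Cnp, Fabp7, Ngfr and Foxd3 with mean TPM values between 27.9 and 110.

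**Figure D2:**
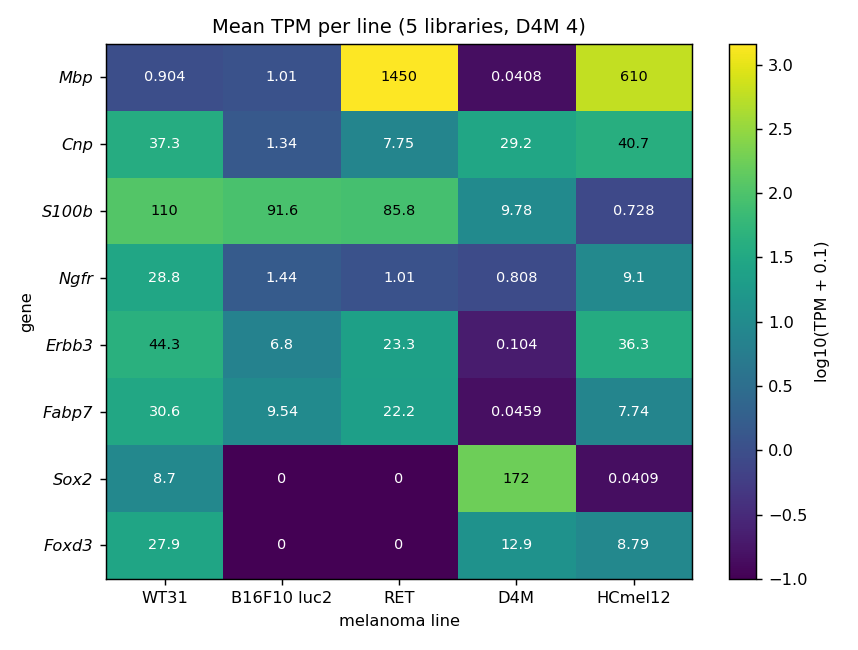
Mean TPM of the 8 genes (rows) in the 5 lines (columns), with the value printed in each cell and the colour on the scale log10(TPM + 0.1). Means are over 5 libraries, or 4 in D4M; Mbp reaches 1450 TPM in RET and 610 in HCmel12, and Sox2 reaches 172 in D4M.

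Among the genes of the myelin sheath, Mbp encodes myelin basic protein, which compacts the membranes of myelin. It was by far the most abundant of the 8 genes in RET, with 1596, 1605, 1273, 1435 and 1484 CPM in replicates 1 to 5. In HCmel12 it had 692, 724, 614, 806 and 715 CPM. Both lines lay above all other libraries, and the mean of RET (1479 ± 136 CPM, SD, n = 5) was 2.08-fold that of HCmel12 (710 ± 68.9 CPM, SD, n = 5), without overlap.

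In WT31 Mbp had 0.645, 0.418, 0.621, 0.654 and 1.07 CPM, and in B16F10 luc2 0.635, 0.456, 1.32, 0.867 and 0.846 CPM. These ranges overlapped. The mean of RET was 2169-fold higher than that of WT31 and 1793-fold higher than that of B16F10 luc2. In D4M the values were 4.32, 0.133, 0, 0 and 0.0852 CPM, so that 94 counts in replicate 1 stood against at most 3 in the others. The D4M mean of 0.908 CPM fell to 0.0546 CPM without replicate 1, and RET was then at least 11203-fold and HCmel12 at least 5379-fold higher than D4M. In the same D4M library Tyrp1 had 27.0 CPM, against at most 2.85 CPM in the other D4M libraries, and Sox10 had 2.07 CPM against at most 0.511 CPM. The part of these genes in the Mbp value of this library was not tested.

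Mbp is annotated with 16 transcripts of 354 to 4797 bases, of which 4 begin at an upstream start that lies 79324 bases before the first of the other 12. The counts and TPM values of a gene together give the mean length of the transcripts to which its reads were assigned. For RET this length was 1609, 1544, 1586, 1666 and 1708 bases in replicates 1 to 5, and for HCmel12 it was 1796, 1752, 1843, 1832 and 1704 bases. The means of 1623 ± 65.0 and 1785 ± 57.8 bases (SD, n = 5 each) lay 163 bases apart, and the ranges overlapped at their ends. The length is given as a description without a test, since it is computed from the counts and TPM values of these libraries, on which the genes were selected, and since this comparison was chosen after its values were seen. It does not tell which transcripts were used, since kallisto divides a read among all transcripts it matches. In the single-transcript genes S100b, Ngfr, Erbb3, Sox2 and Foxd3 the same calculation returned the annotated lengths of 1484, 3446, 6016, 2057 and 2324 bases as the median of every line in which it could be made, with the exception of Erbb3 in RET with 6015 bases. That return is built into the calculation, since TPM is scaled by transcript length and single-transcript genes set the calibration. It shows the arithmetic and is no check of the Mbp lengths.

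**Figure D3:**
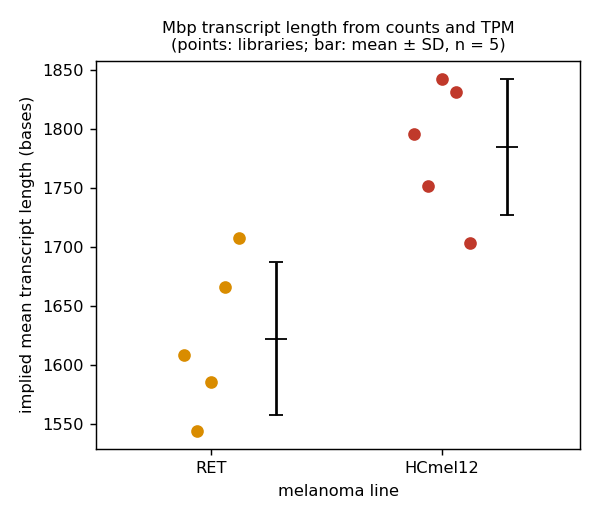
Mean length in bases of the Mbp transcripts to which reads were assigned, from the counts and TPM of each library of RET and HCmel12, the 2 lines with high Mbp. Points are libraries and bars are the mean ± SD of 5; 4 of the 5 RET libraries lie below all HCmel12 libraries, and the vertical axis does not begin at 0.

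Cnp encodes the phosphodiesterase of non-compacted myelin and lies on chromosome 11 (chr11:100574904-100591729, plus strand, GRCm38). Its order of lines differed from that of Mbp. HCmel12 had 67.5, 64.3, 49.7, 65.1 and 74.1 CPM, WT31 had 75.2, 43.3, 51.3, 44.3 and 47.1 CPM, and D4M had 54.4, 45.8, 57.4, 47.4 and 43.6 CPM. These 3 lines overlapped, and without replicate 1 of WT31 the mean of WT31 (46.5 CPM) was below that of D4M (49.7 CPM). RET followed with 13.7, 11.4, 12.2, 10.8 and 11.7 CPM and B16F10 luc2 was lowest with 1.87, 1.49, 2.39, 1.94 and 2.11 CPM. RET and B16F10 luc2 were separate from each other and from the 3 higher lines, and the mean of HCmel12 was 32.7-fold that of B16F10 luc2. RET thus had the highest Mbp and the second lowest Cnp. Cnp overlaps Dnajc7 on the opposite strand, whose mean was 170 CPM in B16F10 luc2. The sources used here do not state whether the libraries kept the strand.

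For the other genes of each pathway, 126 genes in 6 lists were read beside the 8, and 90 of them could be tested. A gene was called higher or lower in a line when the voom test gave an adjusted p under 0.05 in the same direction against each of the 4 other lines. Some list genes passed the filter on low counts only through the line in which they were high. For these a call in that line in part restates the filter. The smallest fitted difference named for a gene is that from the nearest of these lines (log2, ± SE), and for genes at the floor in that line it depends on the prior count and is no bound. In D4M 41 of the 90 were higher and 19 lower. Among all tested genes the shares were 20% higher and 15.7% lower in D4M. In WT31 17 were higher and 5 lower (background 13.8% and 11.1%), in HCmel12 8 and 7 (9.56% and 6.85%), in B16F10 luc2 3 and 6 (8.81% and 6.83%), and in RET 1 and 3 (7.07% and 5.06%).

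**Figure D4:**
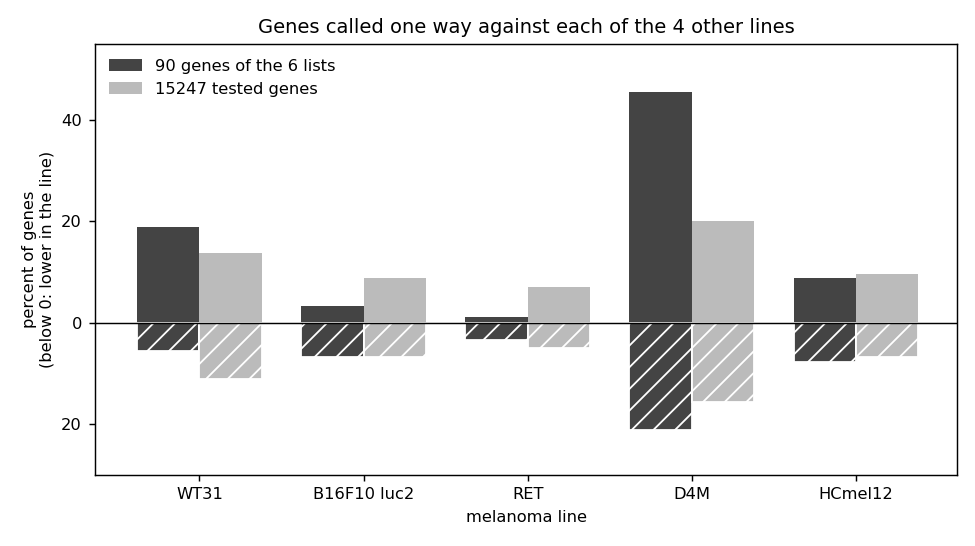
Percent of genes called higher (above 0) or lower (below 0, hatched) in a line than in each of the 4 others, for the 90 tested genes of the 6 lists (dark) and for all 15247 tested genes (light). In D4M 45.6% of the list genes were higher and 21.1% lower, beside 20% and 15.7% of all genes.

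Of 16 other myelin genes 13 were tested. In WT31 5 were higher and 1 was lower than in each other line (38.5% and 7.69%, beside 13.8% and 11.1% of all tested genes). In HCmel12 3 were higher and none was lower (23.1% and 0%, beside 9.56% and 6.85%). In D4M 2 were higher and 3 lower, in RET none was higher and 1 lower, and in B16F10 luc2 none was called in either direction. The median difference of the 13 genes from the mean of the other lines was 1.5 in WT31, 1.82 in HCmel12, -0.53 in RET, -1.16 in B16F10 luc2 and -2.35 in D4M on the log2 scale, beside values between -0.03 and -0.01 over all tested genes. The share of all tested genes called higher in RET, the line with the highest Mbp, was 7.07%, so that none of 13 lies near this background. Ugt8a, which makes the galactolipids of myelin, had 2.11 to 6.95 CPM on average in WT31, B16F10 luc2 and HCmel12, 0.142 ± 0.0559 CPM in D4M and 0.0386 ± 0.0386 CPM in RET. It was the gene called lower in RET, but the difference from D4M (-1.76 ± 0.57, adjusted p = 0.0073) is one of values at about the floor, with at most 5 counts in D4M and at most 2 in RET.

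Pmp22, a protein of compact myelin, had 1.53 ± 0.813 CPM (SD, n = 5) in WT31 against 61.6 to 95.8 CPM in the other lines, with a smallest fitted difference of 5.48 ± 0.29 (log2, SE, adjusted p = 4.3e-15 against B16F10 luc2).

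The membrane protein Mal was higher in WT31 (30.5 ± 10.2 CPM) than in each other line, with RET next at 3.45 ± 0.929 CPM, and so was the gap junction gene Gjb1 (12.2 ± 3.78 CPM, RET 1.82 ± 0.348 CPM). Pou3f1, a transcription factor of Schwann cells about to myelinate, had 126 ± 21.9 CPM in HCmel12 and at most 1.53 CPM on average in any other line, a smallest fitted difference of 6.33 ± 0.22 (adjusted p = 1.1e-18). The lipid binding myelin protein Pmp2 was also highest in HCmel12 (35.1 ± 15.5 CPM, and 28.8 ± 7.36 CPM without replicate 4), above WT31 (7.38 ± 2.73 CPM) by 2.22 ± 0.27 (adjusted p = 3.8e-08). Egr2, the master regulator of myelination, had means of at most 1.38 CPM in all lines. In D4M, where this mean was found, its SD was also 1.38 CPM, and the call there (1.33 ± 0.48 over WT31, adjusted p = 0.013) was lost without replicate 2 of D4M, with a difference of 0.88. Gldn, which encodes gliomedin, a Schwann cell protein of the node of Ranvier, was highest in D4M with 95.6 ± 18.4 CPM against 3.36 ± 1.37 CPM in HCmel12.

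S100b encodes a small calcium-binding protein that is found in glia and melanocytes and is used as a marker of melanoma (chr10:76253853-76261159, plus strand). WT31 had 102, 81.7, 110, 75.4 and 92.8 CPM, B16F10 luc2 84.0, 89.5, 81.3, 84.8 and 82.2 CPM, and RET 74.9, 79.4, 92.3, 70.7 and 77.8 CPM. These 3 lines overlapped and their means lay within 1.17-fold of each other. D4M had 9.98, 12.8, 11.2, 7.42 and 7.96 CPM, and HCmel12 0.482, 0.319, 0.243, 1.62 and 0.854 CPM, both separate from the first 3 lines and from each other. The mean of WT31 was 9.35-fold that of D4M and 132-fold that of HCmel12. HCmel12 thus had the lowest S100b, and its highest value came from replicate 4 (the mean without it was 0.474 CPM). S100b lies within a locus that overlaps Dip2a on the opposite strand, whose mean was 56.4 CPM in D4M.

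Fabp7 encodes the brain type fatty acid binding protein of radial glia and early Schwann cells (chr10:57784881-57788450, plus strand). WT31 had 19.5, 11.6, 10.2, 10.1 and 9.05 CPM and RET 9.33, 8.84, 10.0, 9.61 and 10.5 CPM, with overlap. B16F10 luc2 had 4.80, 4.06, 4.58, 4.87 and 2.50 CPM and HCmel12 3.17, 3.23, 4.30, 4.16 and 2.44 CPM, which overlapped each other but not the first pair. In D4M 4 libraries had no count and replicate 2 had 2 counts. The mean of WT31 was at least 90.8-fold and that of HCmel12 at least 26.0-fold higher than the floor of D4M.

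Among 29 relatives of S100b, Fabp7, Sox2 and Foxd3, 15 were tested, of which 6 were higher and 4 lower in D4M than in each other line, with a median difference of -0.56 (log2). These shares were 40% and 26.7%, beside 20% and 15.7% of all tested genes. WT31 had 4 higher and 1 lower, HCmel12 2 and 1, RET 1 and none, and B16F10 luc2 none and 1. S100a4 and S100a6, relatives of S100b known from fibroblasts and motile cells, had 950 ± 96.8 and 801 ± 78.2 CPM in D4M, and their means were at most 1.2 and 5.46 CPM elsewhere. S100a4 was higher in D4M than in RET, the next line, by 9.75 ± 0.24 (adjusted p = 4.3e-22). The summed level of the fibroblast genes was also highest in D4M, with Lum at 0 counts there, and the part of these genes in these values was not tested.

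The fatty acid binding proteins differed in their order as well. Fabp5 had 434 ± 28.2 CPM in RET, 336 ± 57.3 CPM in HCmel12, 255 ± 9.38 CPM in B16F10 luc2, 232 ± 46.5 CPM in WT31 and 48.4 ± 5.67 CPM in D4M. With all 25 libraries and TMM scaling it was the only list gene called higher in RET, above HCmel12 by 0.38 ± 0.11 (adjusted p = 0.0044), and when single libraries were left out 1 to 3 list genes were called higher there. Fabp3, the heart type, had 89.2 ± 8.92 CPM in HCmel12 and means of at most 0.529 CPM elsewhere (smallest fitted difference 7.42 ± 0.31, adjusted p = 7.1e-17 against RET). Fabp4, the adipocyte type, had 4.04 ± 1.33 CPM in HCmel12 and means of at most 0.0547 CPM elsewhere.

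Of the receptors, Erbb3 encodes the neuregulin receptor without strong kinase activity of its own (chr10:128567523-128589652, minus strand). WT31 had 182, 141, 166, 155 and 197 CPM and HCmel12 163, 179, 153, 124 and 151 CPM, with overlap. RET had 92.4, 91.8, 112, 94.9 and 96.0 CPM and B16F10 luc2 25.2, 29.1, 28.7, 23.2 and 35.2 CPM. D4M had 0.552, 0.444, 0.312, 0.533 and 0.596 CPM, or 7 to 14 counts per library. All pairs of lines other than WT31 and HCmel12 were separate, and even B16F10 luc2 was 58.0-fold above D4M, while WT31 was 345-fold above it.

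The partner and the ligands of ErbB3 showed another distribution. Erbb2, the receptor with which ErbB3 signals, had similar means of 17.1 ± 2.19 CPM in B16F10 luc2, 20.2 ± 1.01 CPM in D4M, 24.2 ± 2.56 CPM in RET, 25.7 ± 1.73 CPM in WT31 and 29.7 ± 3.70 CPM in HCmel12. It was lower in B16F10 luc2 than in D4M by 0.25 ± 0.10 (adjusted p = 0.024) and higher in HCmel12 than in WT31 by 0.20 ± 0.09 (adjusted p = 0.037), and both calls were lost when counts were scaled by library size alone (-0.10 and 0.16) and in other alternatives. The neuregulin gene Nrg1 had 24.1 ± 5.82 CPM in D4M and means of at most 0.122 CPM in the other lines. It passed the filter through D4M, so that its smallest fitted difference (7.45 ± 0.48 against WT31) is given as a description. D4M, with the lowest Erbb3, thus had the highest Nrg1. Nrg2 also had its highest mean in D4M (16.3 ± 3.57 CPM) and its lowest in HCmel12 (0.0965 ± 0.0669 CPM), where it was below RET by 3.61 ± 0.49 (adjusted p = 3.4e-07).

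The epidermal growth factor receptor Egfr was higher in D4M as well, with 12.5 ± 2.30 CPM against means of at most 0.0894 CPM elsewhere. It also passed the filter through D4M, and its smallest fitted difference (6.96 ± 0.35 against WT31) is given as a description. Its ligands epiregulin (Ereg, 237 ± 54.2 CPM), amphiregulin (Areg, 199 ± 20.2 CPM), betacellulin (Btc, 137 ± 16.2 CPM) and Hbegf (319 ± 30.1 CPM) were highest in D4M. Outside D4M, Ereg, Areg and Btc had means of at most 0.696 CPM and Hbegf had means of 6.71 to 18.4 CPM. The value of 0.696 CPM is that of Btc in HCmel12, which was 0.436 CPM without replicate 4. Tgfa, another ligand of this receptor, was highest in WT31 (47.7 ± 8.54 CPM), above RET (19.8 ± 2.81 CPM) by 1.26 ± 0.12 (adjusted p = 2.7e-10), and in B16F10 luc2 its mean was 0.0559 CPM. In all, 11 of the 15 tested genes of the ErbB list were higher in D4M and none was lower, beside 20% and 15.7% of all tested genes. The median difference was 4.59 (log2), beside -0.02 over all tested genes. Among the 11, Ereg, Areg, Egfr and Nrg1 had at most 5 counts in any library of the other lines. They passed the filter through D4M, so that their calls in part restate it, and their fitted differences depend on the prior count. The 11 include Adam17, a protease that sheds ligands of these receptors, whose difference from the nearest line was 0.33 ± 0.06 (adjusted p = 2.3e-05 against B16F10 luc2) and turned to -0.02 on the log2 TPM scale with either pseudocount and without a filter. They also include the feedback inhibitors Lrig1 (325 ± 11.7 CPM) and Errfi1 (501 ± 123 CPM), which act against these receptors. In WT31 1 of the 15 was higher and none lower, in HCmel12 1 and 3, in B16F10 luc2 none and 4, and in RET none in either direction.

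**Figure D5:**
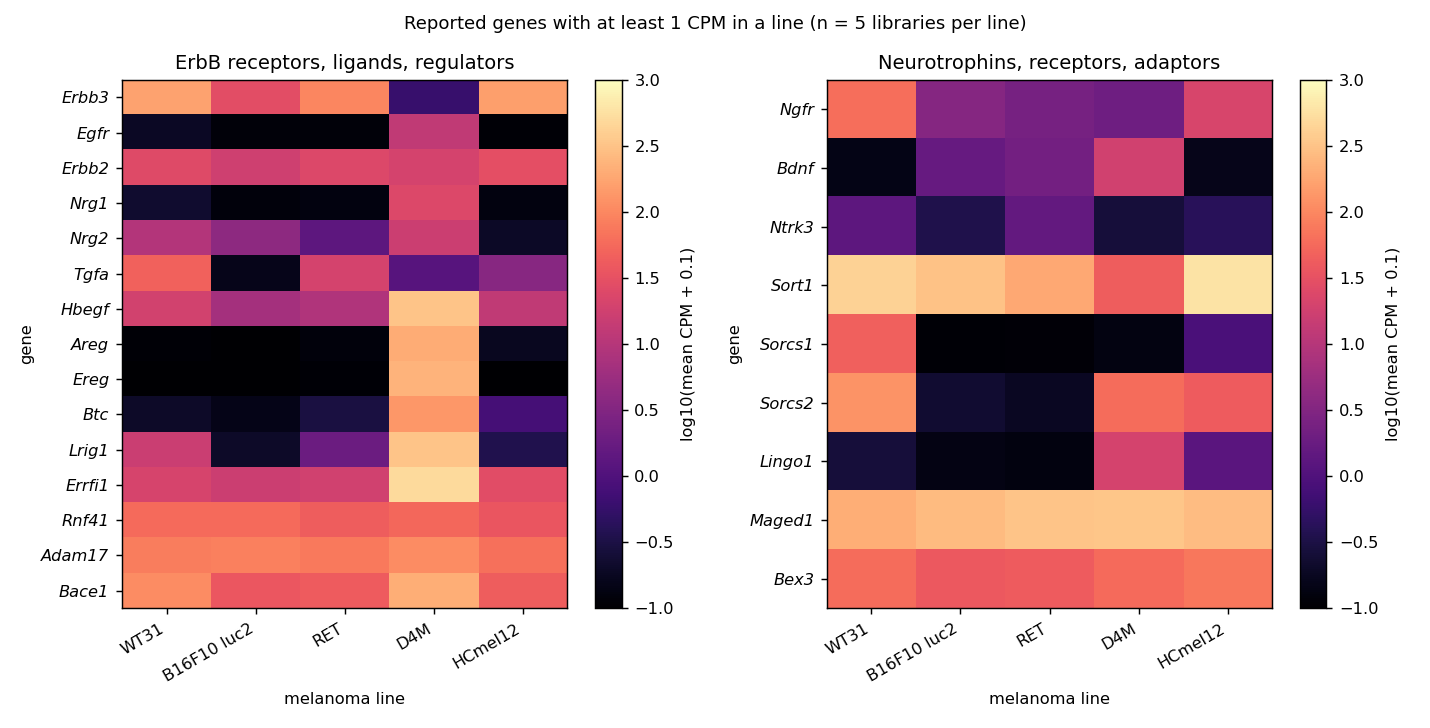
Mean level of Erbb3 with the genes of the ErbB list (left) and of Ngfr with those of the neurotrophin list (right) in the 5 lines, as log10(mean CPM + 0.1) of 5 libraries, for reported genes with at least 1 CPM in a line. Erbb3 is dark in D4M alone, while Egfr, Nrg1, Areg, Ereg and Btc are bright in D4M alone.

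Ngfr encodes the p75 neurotrophin receptor, a marker of neural crest cells and of non-myelinating Schwann cells (chr11:95568818-95587735, minus strand). WT31 had 120, 27.2, 49.5, 61.9 and 46.0 CPM, the widest spread of the 8 genes in this line relative to the mean. HCmel12 had 18.5, 23.5, 30.8, 10.7 and 23.7 CPM. The mean of WT31 (60.9 ± 35.3 CPM) was 2.84-fold that of HCmel12 (21.5 ± 7.45 CPM), but the ranges overlapped, and without replicate 1 the mean of WT31 was 46.1 ± 14.4 CPM.

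B16F10 luc2 had 1.71, 4.16, 3.83, 2.52 and 4.46 CPM of Ngfr, RET 1.46, 2.38, 3.19, 2.64 and 2.09 CPM, and D4M 1.38, 1.25, 3.39, 0.889 and 2.64 CPM. These 3 lines overlapped one another and lay below every library of WT31 and HCmel12. The mean of HCmel12 was 6.43-fold that of B16F10 luc2, the next line.

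Of the neurotrophins themselves, Bdnf had 18.2 ± 1.15 CPM in D4M, 2.14 ± 0.551 CPM in RET and 1.56 ± 0.131 CPM in B16F10 luc2, and at most 0.0562 CPM on average in WT31 and HCmel12. It was higher in D4M than in RET by 3.11 ± 0.18 (adjusted p = 1.7e-14). The 2 lines with the highest Ngfr thus had the lowest Bdnf, and D4M, where Ngfr had its lowest mean, had the highest. The high-affinity receptor Ntrk2 was not tested, since its means lay between 0.0076 and 0.0267 CPM.

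Of the sortilin family of co-receptors, Sort1 partners p75 for the precursor forms of neurotrophins. It had 603 ± 61.1 CPM in HCmel12, 423 ± 22 CPM in WT31, 316 ± 22.4 CPM in B16F10 luc2, 186 ± 13.6 CPM in RET and 42.6 ± 6.4 CPM in D4M. Sort1 was higher in HCmel12 than in WT31 by 0.51 ± 0.08 (adjusted p = 1.8e-06) and lower in D4M than in RET by 2.13 ± 0.09 (adjusted p = 7.9e-18). Its relatives Sorcs1 (45.6 ± 6.05 CPM) and Sorcs2 (125 ± 37.4 CPM) were highest in WT31, Sorcs1 by 5.91 ± 0.26 (adjusted p = 8.5e-17 against HCmel12) and Sorcs2 by 1.01 ± 0.16 over D4M (adjusted p = 1.8e-06). Of the 12 tested genes of this list, 3 were higher and 2 lower in D4M, 3 and 1 in WT31, 2 and none in HCmel12, 1 and none in B16F10 luc2 and none in RET. The shares in D4M, 25% and 16.7%, lay near the 20% and 15.7% of all tested genes. In WT31 they were 25% and 8.33%, beside 13.8% and 11.1%.

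The transcription factors Sox2 and Foxd3 were the members that were absent from the counts of whole lines. Sox2 keeps stem cells and immature Schwann cells from differentiating and lies in 1 exon on chromosome 3 (chr3:34650405-34652461, plus strand). D4M had 237, 276, 271, 257 and 200 CPM and WT31 15.6, 9.15, 9.20, 9.39 and 9.42 CPM. HCmel12 had at most 3 counts in a library, and B16F10 luc2 and RET had 0 counts in all 10. The mean of D4M (248 ± 30.8 CPM) was 23.5-fold that of WT31 and at least 2047-fold higher than the floor of B16F10 luc2, and WT31 was at least 87.0-fold higher than that floor.

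Foxd3 is a forkhead factor of the early neural crest that holds back the melanocyte fate and lies in 1 exon on chromosome 4 (chr4:99656299-99658622, plus strand). WT31 had 45.8, 30.8, 38.3, 41.4 and 37.5 CPM, D4M 24, 24.7, 21.8, 21.6 and 18.2 CPM, and HCmel12 10.8, 18.3, 14.8, 12.6 and 11.7 CPM. WT31 was separate from D4M and HCmel12, which touched at 18.2 and 18.3 CPM. As with Sox2, B16F10 luc2 and RET had 0 counts in all 10 libraries, and WT31 was at least 320-fold higher than the floor of B16F10 luc2 and at least 332-fold higher than that of RET. Of the 31-base sequences in the Foxd3 transcript 5.54% also occur in transcripts of other genes, and for Sox2 this share was 0.888%. Reads from such stretches can match other genes as well, and how many were divided was not measured.

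Promoter entries were matched for 6 of the 8 genes (Cnp, S100b, Ngfr, Fabp7, Sox2 and Foxd3) in RefSeq (GRCm38.p6). The 200 bases that end 50 bases before the RefSeq start, which for Sox2 and S100b lies upstream of the gene start given here from GENCODE, are printed for Sox2 and Foxd3, which were on in some lines and at 0 in others, and for S100b, which had the largest TPM of the 8 genes in WT31 and B16F10 luc2. All 3 are on the plus strand, at chr3:34649745-34649944, chr4:99656049-99656248 and chr10:76253586-76253785. Capitals mark the motifs searched for on both strands, the SOX core ACAAAG or ACAATG, the E-box CACGTG or CATGTG and the GC box GGGCGG.
Sox2: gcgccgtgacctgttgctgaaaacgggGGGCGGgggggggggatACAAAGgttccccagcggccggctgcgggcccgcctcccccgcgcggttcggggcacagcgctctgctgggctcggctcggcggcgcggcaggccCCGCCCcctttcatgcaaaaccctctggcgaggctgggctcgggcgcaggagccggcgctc
Foxd3: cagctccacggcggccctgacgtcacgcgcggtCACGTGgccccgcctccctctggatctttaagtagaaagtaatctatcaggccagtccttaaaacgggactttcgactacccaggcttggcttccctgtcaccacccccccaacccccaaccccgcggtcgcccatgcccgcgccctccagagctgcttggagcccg
S100b: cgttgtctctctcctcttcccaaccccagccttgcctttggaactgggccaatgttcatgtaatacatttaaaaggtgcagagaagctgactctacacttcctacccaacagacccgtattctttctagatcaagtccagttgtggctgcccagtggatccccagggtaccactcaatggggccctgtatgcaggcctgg

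The Sox2 window held ACAAAG at 1 place and GGGCGG at 2 places, the Foxd3 window held CACGTG at 1 place, and the S100b window held none of the 5 motifs. Of 27025 promoters of this length, 13.6% held ACAAAG, 9.21% ACAATG, 4.35% CACGTG, 10.3% CATGTG and 24.5% GGGCGG. GC content was 76.0% in the Sox2 window, 64.5% in the Foxd3 window and 52.0% in the S100b window, beside a median of 51.5% over all promoters. Of the windows not printed, that of Cnp held ACAAAG at 1 place, that of Ngfr held GGGCGG at 3 places and that of Fabp7 held none. A match describes the letters and not a bound site.

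Sox10, the factor that neural crest, Schwann cells and melanocytes share and that heads the list of Schwann lineage genes, was high in all lines except D4M. It had means of 897 ± 66.0 CPM in WT31, 826 ± 58.6 CPM in HCmel12, 613 ± 31.2 CPM in B16F10 luc2 and 547 ± 47.4 CPM in RET, and 0.552 ± 0.872 CPM in D4M (0.172 ± 0.233 CPM without replicate 1, n = 4). With all libraries it was lower in D4M than in RET by 11.48 ± 0.54 (adjusted p = 2.3e-16). Cdh19, a cadherin of Schwann cell precursors, followed with 31.8 to 89.2 CPM in the other lines and 0.0900 ± 0.0920 CPM in D4M (0.0551 ± 0.0561 CPM without replicate 1, n = 4). Gap43, a growth-associated protein of immature and denervated Schwann cells, had 31.8 ± 6.25 CPM in D4M and means of at most 0.934 CPM elsewhere (smallest fitted difference 5.11 ± 0.26, adjusted p = 1.4e-15 against WT31). Dhh, the hedgehog ligand of Schwann cells, had 55.3 ± 11.7 CPM in D4M and at most 2.26 CPM elsewhere. Of 15 tested genes of this list, 8 were higher and 5 lower in D4M, with a median difference of 1.9 (log2). These shares were 53.3% and 33.3%, beside 20% and 15.7% of all tested genes. In WT31 3 were higher and 1 lower, in HCmel12 none and 2, and in B16F10 luc2 and RET none and 1 each.

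In the neural crest list 20 genes were tested, of which 11 were higher and 5 lower in D4M, with a median difference of 1.56 (log2). These shares were 55% and 25%, beside 20% and 15.7% of all tested genes. Twist1 (79.1 ± 11.7 CPM), Msx1 (22.7 ± 4.89 CPM), Snai1 (19.3 ± 4.22 CPM) and Sox9 (71.8 ± 10.1 CPM), transcription factors of the crest that also act in mesenchyme, were among the higher, and the summed level of the fibroblast genes was highest in the same line, with Lum at 0 counts. Their part in these values was not tested. Twist1 had 4 to 12 counts per library in WT31 and 0 counts in B16F10 luc2, RET and HCmel12. It thus passed the filter through D4M, and its smallest fitted difference (8.10 ± 0.26 against WT31) is given as a description. Msx1 had at most 3 counts in any library of the other lines and also passed through D4M. The calls of such genes in part restate the filter, and they enter the 55% given above. For Sox9 the smallest fitted difference was 4.01 ± 0.21 (adjusted p = 2.1e-15 against B16F10 luc2). Pax3, which acts with Sox10 on Mitf, was lower in D4M (21 ± 1.05 CPM against 177 to 221 CPM), by 3.07 ± 0.07 (adjusted p = 2.4e-22 against B16F10 luc2). Tfap2a and Snai2 were expressed in all lines, with means of 59.3 to 100.0 CPM and 4.10 to 14.1 CPM. In D4M neither was called, since Tfap2a differed from WT31 by 0.12 ± 0.10 (adjusted p = 0.27) and Snai2 by 0.25 ± 0.13 (adjusted p = 0.071). In WT31 1 gene of the list was higher and 1 lower, in B16F10 luc2 2 and none, and in RET and HCmel12 none and 1 each. Foxd1 and Foxd2, relatives of Foxd3, were higher in WT31, Foxd1 with 56.7 ± 2.66 CPM against 5.77 ± 0.510 CPM in HCmel12 and at most 0.0231 CPM elsewhere. The relatives of Sox2 in the SoxB group were low. Sox1 and Sox14 had no count in any library, and Sox3 and Sox21 had means of at most 2.10 CPM.

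The 8 genes did not follow 1 common pattern over the 25 libraries. The highest correlation of log2 CPM between members was 0.94 for Erbb3 and Fabp7, followed by 0.88 for Cnp and Foxd3 and 0.72 for Sox2 and Foxd3, and the lowest was -0.70 for Sox2 and Erbb3. These values are descriptions, since the 25 points come from 5 lines. By the same measure the 3 tested genes most like Mbp were Ckb (0.958), Gm18358 and Rgs3, and those most like Cnp were Ulbp1 (0.981), Serpine2 and Mthfd2l. For S100b they were Glrb (0.978), Zfp970 and Meis1, and for Fabp7 Plekhg1 (0.985), Faah and Zic2. Ngfr was most like Foxd1 (0.954), Abca3 and Stag3, and Erbb3 most like Gjc3 (0.988), Cyp39a1 and Irx3. Sox2 was most like Chrm3 (0.994), Fam78b and Lrfn3, and Foxd3 most like Ptpn13 (0.996), Sorcs2 and H1fx.

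Gjc3 encodes a connexin of myelinating glia and had 258 ± 60.8 CPM in HCmel12, 119 ± 6.65 CPM in WT31, 97.8 ± 9.33 CPM in RET, 25.8 ± 6.07 CPM in B16F10 luc2 and 0.122 ± 0.139 CPM in D4M, where it was 0.0604 ± 0.0222 CPM without replicate 1 (n = 4). Ckb, the brain type creatine kinase, had 542 ± 67.2 CPM in HCmel12 and 377 ± 24.8 CPM in RET against 44.2 to 79.8 CPM elsewhere. It was thus high in the same 2 lines as Mbp, with their order exchanged. Ptpn13, a tyrosine phosphatase, was high in the lines with Foxd3 (106 ± 19.6 CPM in WT31, 51.4 ± 4.28 CPM in D4M and 20 ± 2.79 CPM in HCmel12) and had means of at most 0.0238 CPM in B16F10 luc2 and RET. Chrm3, a muscarinic receptor, had 44.8 ± 4.81 CPM in D4M, 4.44 ± 1.38 CPM in WT31 and no count in the other 3 lines, the same 2 lines as Sox2. The non-coding gene Sox2ot, in which Sox2 lies on the same strand, had 2.38 ± 0.402 CPM in D4M and means of at most 0.132 CPM elsewhere.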

How the data were processed

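Cultured cells of 5 melanoma lines were measured by RNA-seq in 25 libraries (5 per line). The authors trimmed reads with trim_galore (0.6.4), assigned them to GRCm38.p6 with kallisto (0.46.1 in the methods, 0.4.6 in the submitters' processing notes) and deposited estimated counts per gene that were not normalized. TPM values, which the authors scaled by transcript length and deposited as well, were used for 24 libraries (not for D4M replicate 1). The annotation release is not given in the sources used here.

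The 8 genes, the 6 lists and the tests were chosen with earlier results of these data known. Counts were filtered with filterByExpr and scaled with TMM (edgeR 4.0.16), transformed with voom and fitted with a mean per line (limma 3.58.1, R 4.3.3). All 10 pairs of lines were tested over 15247 genes with Benjamini-Hochberg adjustment at 0.05. Library totals were 24199083 to 25843286 counts. Named were the 8 genes, the 3 genes most correlated with each, a set of 15 genes always given, and genes of a list called against all 4 other lines, up to 4 per list and line with the largest weakest fold change. Of these only part is described, and some list genes that enter the counts are not reported here. Egfr, Lrig1, Errfi1, Hbegf, Nrg2, Snai1 and Sox9 in D4M, and Sox2ot, Sox1, Sox3, Sox14 and Adam17, fall outside this rule and were chosen after their values were seen. Transcript lengths were counts divided by TPM, calibrated on genes with a single transcript in GENCODE M21, of which at least 98.4% per library came within 5% of the annotated length. That share describes the calibration and does not check the lengths of genes with several transcripts. Alternatives were other scalings, filters, tests (DESeq2 1.42.0), TPM and left-out libraries. Tested on simulated data for D4M against each other line, the procedure recovered 200 of 200 genes with a 4-fold change among 14616 genes, with 0 false calls. In the simulation all lines shared a common mean per gene, and the changes were placed in D4M alone, in genes above the floor. It therefore does not cover smaller differences, values at the floor or lines that differ in many genes, as the real lines do.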

Additional observations from a re-analysis of the deposited data

Results flagged for a closer look

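In groups of 5 libraries, the distance of the highest or lowest library to the next was compared with the whole range of the group, and 5 of 34 groups exceeded a share of 0.710. Chance gives about 1 such group in 20. Mbp in D4M replicate 1 was at 4.32 CPM, and the next D4M library was at 0.133 CPM. In WT31 replicate 1 was the highest library for 3 genes, with 75.2 CPM of Cnp (next 51.3 CPM), 19.5 CPM of Fabp7 (next 11.6 CPM) and 15.6 CPM of Sox2 (next 9.42 CPM). Erbb3 in RET replicate 3 was at 112 CPM, with 96.0 CPM in the next library. Over all tested genes WT31 replicate 1 stood apart in the same way in 2.18%, RET replicate 3 in 1.9% and D4M replicate 1 in 1.28%. The shares of single libraries ran from 0.61% (WT31 replicate 3) to 6.75% (HCmel12 replicate 4). The last is for 1 library alone and already exceeds 1 in 20, so that the chance share is no background for these data.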

How the results depend on the processing

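The order of the 5 lines rests on 76 ordered pairs over the 8 genes. Leaving out single libraries kept 74 to 76 of these pairs. The mean of Mbp in D4M, 0.908 CPM, was 0.0546 CPM without replicate 1. The exchanged pairs were D4M with WT31 or B16F10 luc2 for Mbp, and WT31 with D4M for Cnp. The difference of Mbp transcript length lay between -184 and -143 bases when single libraries were left out, an alternative added after seeing the data.

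Of 110 calls of list genes, 71 held under every alternative that tested the gene. Adam17 in D4M reversed its sign, with -0.02 under both pseudocounts and without a filter on TPM. With library size alone the median of all tested genes in D4M was -0.21 (log2), and 3 list genes were higher in RET in place of 1. With at least 10 counts in every library 38 list genes remained to be tested, since the filter leaves fewer genes, and 8 were higher in WT31, 1 in B16F10 luc2, 17 in D4M and 3 in HCmel12, while 9 were lower in D4M. When a 2-fold difference (1 on the log2 scale) was also required, 10 genes were higher and 3 lower in WT31, 2 lower in B16F10 luc2, 0 higher in RET, and 5 higher and 3 lower in HCmel12. With log2(TPM + 1) 1 gene was lower in RET with and without a filter, and 3 were lower in B16F10 luc2 without one; the cause was not tested.

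When single libraries were left out, genes higher and lower numbered 17 and 5 to 6 in WT31, 2 to 3 and 5 to 7 in B16F10 luc2, 1 to 3 and 2 to 3 in RET, 41 to 42 and 18 to 20 in D4M, and 7 to 8 and 6 to 7 in HCmel12. The highest count in RET, 3, was found without WT31 replicate 1, and it was 2 without B16F10 luc2 replicate 3, RET replicate 1 or any of the 5 D4M libraries. Replicate numbers did not pair the libraries (mean correlation of deviations -0.004 over 50 pairs, 4 of them over 0.1, and 6 libraries closest to their own number). With the replicate number as a block, 41 genes were higher and 19 lower in D4M, 17 and 5 in WT31, 3 and 7 in B16F10 luc2, 1 and 3 in RET and 7 and 7 in HCmel12. At these depths a level of 3 counts or less could not be told from 0.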
